A study of Mus musculus with 16 samples.

Results

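The Rhox homeobox genes examined here are Rhox5, Rhox6, Rhox9 and Rhox13, members of the reproductive homeobox cluster on the mouse X chromosome. All probe sets of the deposited table annotated to these symbols alone were taken, and they came to 4 probe sets for 4 genes, of 18193 genes measured. The annotation lists 33 protein-coding Rhox genes, and 29 of them have no probe set in the table, so the members are the measured fraction of the cluster. They were chosen because they were higher in Rybp-KO cells in an earlier analysis of the same arrays. Their KO minus control differences are therefore given as a description and support nothing by themselves, while the comparisons between days and between clones are tested. The comparison of days within KO cells uses arrays that also entered this choice, so its p-values are not free of it. Control arrays entered the choice too, and tests of the KO effect between days or clones use the same KO minus control differences. The p-values of those comparisons may therefore not be free of the choice either.

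The cells were mouse embryonic stem (ES) cells, a pluripotent line type taken from early embryos, with a 129/B6 hybrid background. Clones 10 and 15 either stayed untreated, labelled as wild-type control, or received 4-hydroxytamoxifen (OHT) at 800 nM for 24 hours to deplete Rybp, labelled Rybp-KO and called KO here. RNA of both conditions was hybridised for day 4 and day 12, counted from the OHT treatment in the KO cells, which makes 4 groups of 4 arrays with 2 arrays of each clone, numbered replicate 1 and 2. The labels give neither the floxed allele nor the recombinase, and no control received OHT, so an effect of OHT itself cannot be told apart from loss of Rybp. The cells grew with leukaemia inhibitory factor on irradiated mouse fibroblasts or on gelatin, and the surface behind each array is not labelled. Separate cultures are not stated for the replicates, so p-values here measure only how far these arrays spread, and that spread may be technical.

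Rhox proteins are homeodomain transcription factors made mainly in the placenta, the testis, the epididymis and the ovary. Rhox5, also known as Pem, is the founding member and acts in Sertoli cells, the nurse cells of the testis, and is also made in early extraembryonic tissue and in cultured ES cells. Rhox6 and Rhox9, the Psx genes, are close paralogs of each other known from the placenta and the fetal gonad, and Rhox13 is made in male germ cells. Genes of the cluster are known for DNA methylation at their promoters in the embryo proper. Rybp is a subunit of variant Polycomb repressive complexes PRC1, among them PRC1.6, which holds the DNA-binding proteins Mga, Max and E2f6 and is known for silencing germline genes in ES cells.

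The promoter sequences of Rhox5 and Rhox13, the members with an entry in the promoter table used, are shown because DNA methylation at CG dinucleotides and the motifs of PRC1.6 proteins are the known features of such promoters. They are the 250 bases before the RefSeq start site in assembly GRCm38.p6, 5′ to 3′ on the plus strand, with each CG in capitals. The Rhox5 window is chrX:37754358-37754607 and the Rhox13 window is chrX:38120590-38120839.
Rhox5: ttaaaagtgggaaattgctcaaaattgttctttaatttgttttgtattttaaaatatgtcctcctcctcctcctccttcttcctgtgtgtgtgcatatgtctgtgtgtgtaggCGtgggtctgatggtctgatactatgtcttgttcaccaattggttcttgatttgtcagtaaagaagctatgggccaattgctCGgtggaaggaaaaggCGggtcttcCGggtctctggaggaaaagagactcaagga
Rhox13: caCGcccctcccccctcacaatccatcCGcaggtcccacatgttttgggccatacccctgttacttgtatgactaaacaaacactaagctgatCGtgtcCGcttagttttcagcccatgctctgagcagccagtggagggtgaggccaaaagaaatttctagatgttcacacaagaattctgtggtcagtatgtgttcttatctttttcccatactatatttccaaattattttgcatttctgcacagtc
Each window holds 4 CG dinucleotides, against a median of 6 over 32851 promoter windows of the same length, of which 62.2% hold at least as many. Neither window holds CACGTG, the E-box bound by Mga and Max, which occurs in 6.02% of all windows, nor GCGGGA on either strand, an E2F motif, which occurs in 16.9%. A missing match says only that these letters are not in these windows. Rhox6 and Rhox9 are named here without a promoter sequence.

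The values are the deposited linear intensities, normalised together before deposit so that every array has a median of 93.3. Each gene has its own probes, so levels are compared between groups and not between genes, and differences are of log2 intensity with their standard error (SE). The targeted transcript, read by probe set 1421111_at, which carries the symbols of Rybp and its pseudogene, averaged 2753 ± 609 (SD, n = 4) at day 4 and 3029 ± 334 at day 12 in control cells, against 97.4 ± 18.5 and 189 ± 74.6 in KO cells. The 8 control arrays lay between 2047 and 3434 and the 8 KO arrays between 84.9 and 256. By clone, the KO arrays of day 4 read 88.5 and 91.0 in clone 10 and 84.9 and 125 in clone 15. Those of day 12 read 143 and 109 in clone 10 and 249 and 256 in clone 15. A link of this remaining signal to the Rhox values was not tested. A second Rybp probe set, 1428219_at, read higher in KO cells, at 6002 ± 1840.3 against 1363 ± 1282 at day 4. At day 12 it read 4199 ± 997 against 960 ± 963. The log2 difference was 2.82 (limma adjusted p = 0.154) and 2.95 (limma adjusted p = 0.0518). Its control level differed between the clones (clone 15 minus clone 10 -3.27 on the log2 scale, limma adjusted p = 0.00425). The KO minus control difference of this probe set was larger in clone 15 by 3.51 (limma adjusted p = 0.0503). The cause was not tested. Of 10 ES cell markers 0 differed at day 4 and 1, Utf1, fell at day 12 (limma adjusted p = 0.0256). Of all entries 0.627% and 3.09% differed at these days in either direction. The summed intensity of the 10 markers lay between 106215 and 137610 on all arrays. Day 4 arrays also parted by replicate number: 5178 of 18195 entries (28.5%) differed between numbers 1 and 2 there by limma, against 1181 (6.49%) at day 12. None of the 4 Rhox genes passed that test at day 4 (limma adjusted p from 0.168 to 0.871) or at day 12 (limma adjusted p from 0.0635 to 0.476).

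All 4 Rhox genes had a higher intensity in KO than in control cells, in 4 of 4 pairs of arrays sharing clone and replicate number at each day. The difference was largest for Rhox13 and smallest for Rhox5 at both days. The levels on every array follow, gene by gene.

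**Figure D1:**
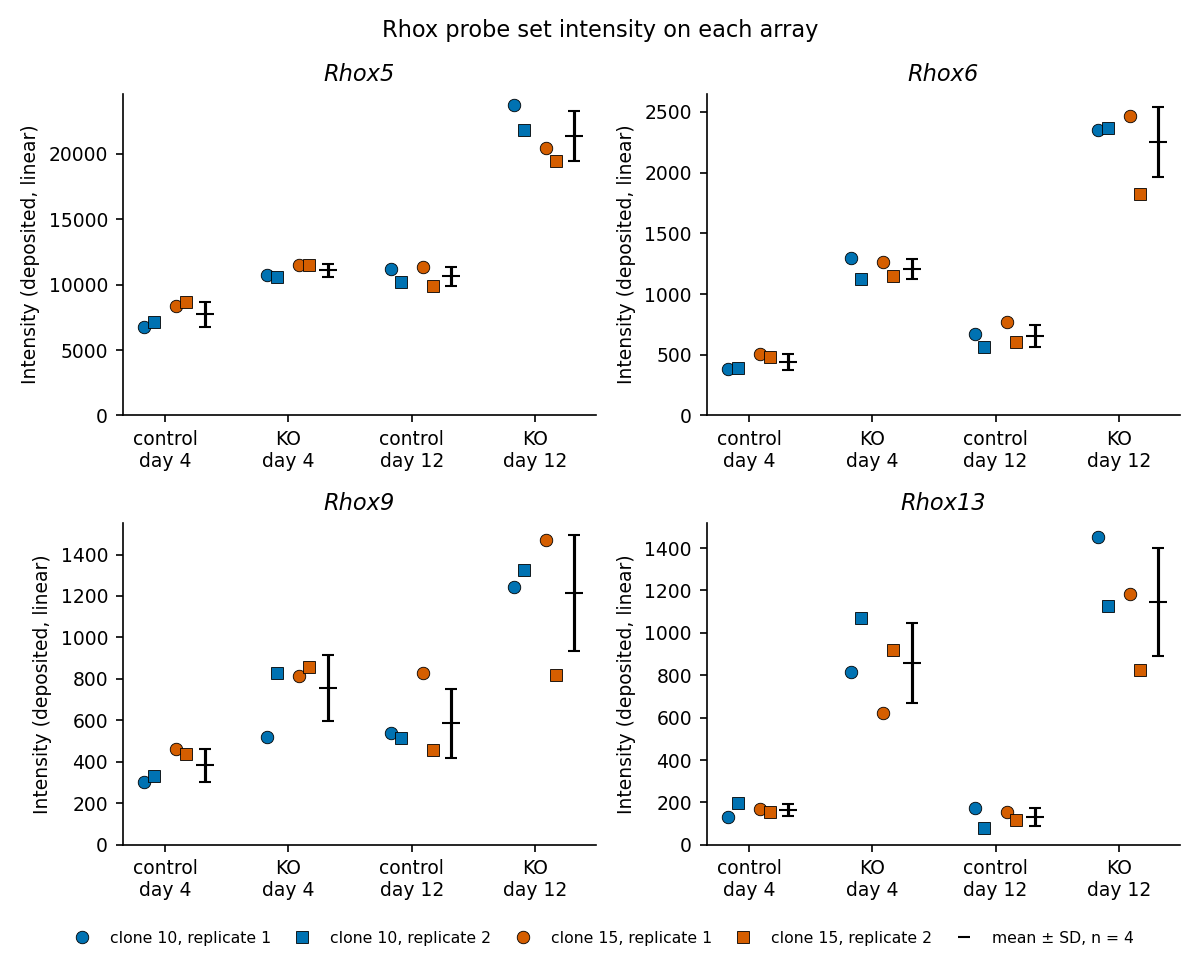
Deposited linear intensity of the probe sets of Rhox5, Rhox6, Rhox9 and Rhox13 in control and KO cells at day 4 and day 12, 1 point per array, coloured by clone and shaped by replicate number, with the mean and SD of 4 arrays beside them. For Rhox6 and Rhox13 every KO array lies above every control array, for Rhox5 the KO arrays of day 4 overlap the control arrays of day 12, and for Rhox9 the lowest KO array of day 12 (821) lies just under the highest control array (828).

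Rhox5, the Sertoli cell and extraembryonic factor, was read by probe set 1423429_at. In control cells of day 4 it read 6748 and 7116 in clone 10 and 8349.8 and 8699 in clone 15, and in KO cells 10734 and 10619 in clone 10 and 11548 and 11489 in clone 15. At day 12 the control arrays read 11198 and 10175 in clone 10 and 11357 and 9878 in clone 15, and the KO arrays 23776 and 21869.6 in clone 10 and 20446 and 19432 in clone 15. KO and control arrays did not overlap at either day, and the KO arrays of day 12 stood apart above all the others. The KO arrays of day 4 (10619 to 11548) were at the level that control cells reached by day 12 (9878 to 11357). The KO minus control difference was 0.53 (SE 0.11) at day 4, a 1.44-fold difference, and 1.004 (SE 0.11) at day 12, a 2.01-fold difference. Within pairs the fold ran from 1.32 to 1.59 at day 4 and from 1.80 to 2.15 at day 12.

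Rhox6, one of the Psx genes, was read by probe set 1419018_at. In control cells of day 4 it read 384 and 388 in clone 10 and 509.9 and 478 in clone 15, and in KO cells 1293 and 1123 in clone 10 and 1263 and 1149 in clone 15. At day 12 it read 673 and 561 in clone 10 and 769 and 604 in clone 15 in control cells, and 2352 and 2366 in clone 10 and 2470.2 and 1825 in clone 15 in KO cells. The groups were ordered control day 4, control day 12, KO day 4, KO day 12, and no neighbours in that order overlapped, with the control groups the closest to each other (509.9 against 561). The KO minus control difference was 1.46 (SE 0.14) at day 4, a 2.76-fold difference, and 1.79 (SE 0.14) at day 12, a 3.46-fold difference. Within pairs the fold ran from 2.41 to 3.36 at day 4 and from 3.02 to 4.22 at day 12.

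Rhox9, the close paralog of Rhox6, was read by probe set 1449540_at. In control cells of day 4 it read 302 and 331 in clone 10 and 460.1 and 438 in clone 15, and in KO cells 519 and 830.0 in clone 10 and 815 and 858 in clone 15. At day 12 it read 539.7 and 517 in clone 10 and 828 and 458 in clone 15 in control cells, and 1243 and 1325 in clone 10 and 1470.3 and 821 in clone 15 in KO cells. The groups did not overlap at day 4, though 1 KO array, clone 10 replicate 1, lay nearer to the controls than to the other 3 KO arrays. At day 12 they overlapped by 1 array each, a KO array at 821 and a control array at 828. These arrays come from different pairs, and the pairs themselves had folds from 1.78 to 2.56 at day 12 and from 1.72 to 2.51 at day 4. The KO minus control difference was 0.98 (SE 0.24) at day 4, a 1.97-fold difference, and 1.06 (SE 0.24) at day 12, a 2.08-fold difference. Probe sequences were not used here, so cross-hybridisation between Rhox6 and Rhox9 transcripts was not tested.

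Rhox13, the germ cell member, was read by probe set 1443844_at. In control cells of day 4 it read 132 and 198 in clone 10 and 171 and 156 in clone 15, and in KO cells 818 and 1069.8 in clone 10 and 623 and 921 in clone 15. At day 12 it read 172 and 79.3 in clone 10 and 155 and 115 in clone 15 in control cells, and 1451 and 1125 in clone 10 and 1182 and 827 in clone 15 in KO cells. The lowest of the 8 KO arrays lay 3.14-fold above the highest of the 8 control arrays, and the control groups of the 2 days overlapped, as did the KO groups. The KO minus control difference was 2.37 (SE 0.26) at day 4, a 5.18-fold difference, and 3.17 (SE 0.26) at day 12, a 9.01-fold difference. Within pairs the fold ran from 3.65 to 6.19 at day 4 and from 7.21 to 14.2 at day 12, where the highest fold belonged to the pair with the lowest control array (79.3).

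**Figure D2:**
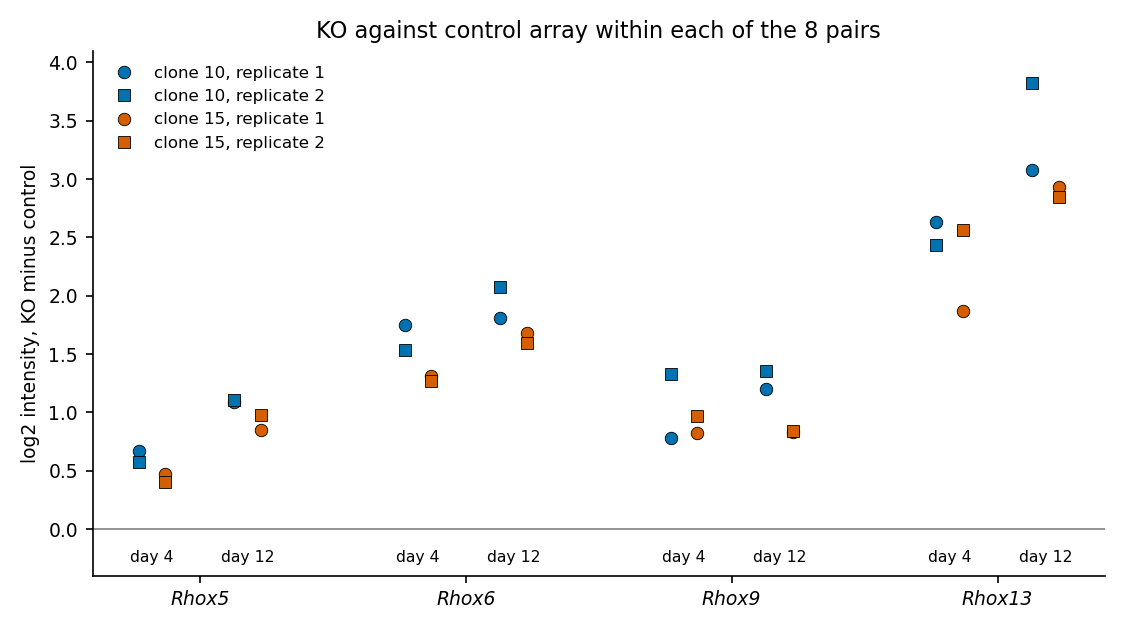
Difference of log2 intensity between the KO and the control array of the same clone, day and replicate number, 1 point per pair, for the 4 Rhox genes at day 4 and day 12. Every pair lies above 0, from 0.40 for Rhox5 at day 4 to 3.83 for Rhox13 at day 12.

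Set against the whole table, the members differed in where they stood. Of the 18195 tested entries 0.374% had a day 4 difference at or above that of Rhox13, 2.10% at or above Rhox6, 5.51% at or above Rhox9 and 12.9% at or above Rhox5. At day 12 these shares were 0.181%, 1.43%, 5.50% and 6.04%. At an adjusted p under 0.05, limma called 2 of the 4 members higher at day 4, Rhox6 and Rhox13, where 0.566% of all entries were called higher, and 4 of 4 at day 12, where 2.19% were. With the 8 pairs of arrays as a block the count was 4 of 4 at both days, with 0.736% of all entries higher at day 4 and 4.68% at day 12. Since the members were chosen on these contrasts, nothing is read from the counts. The call of Rhox9 at day 12 was lost in 6 of the 16 fits without 1 array: control clone 10 replicate 1, control clone 10 replicate 2, control clone 15 replicate 2, KO clone 10 replicate 1, KO clone 15 replicate 1 or KO clone 10 replicate 2 of that day.

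KO arrays were above all control arrays of the same day for 4 of 4 members at day 4, where 3.49% of all entries parted in this way, and for 3 of 4, all but Rhox9, at day 12, where 7.41% did. For Rhox6 and Rhox13 every KO array of either day was above every control array of either day, as for 1.1% of all entries. Rhox6 and Rhox13 in KO cells of day 4 were also above all control arrays of day 12, as for 6.05% of entries, whereas Rhox5 and Rhox9 overlapped there.

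Untreated cells were compared between the days to ask whether the genes change with time in culture without OHT. Rhox5, Rhox6 and Rhox9 read higher at day 12 than at day 4 and Rhox13 read lower, but none of the 4 passed the threshold, where 0.995% of entries did in either direction. The difference was 0.47 for Rhox5 (95% interval 0.22 to 0.71, limma adjusted p = 0.0740) and 0.57 for Rhox6 (0.26 to 0.88, limma adjusted p = 0.0870). It was 0.60 for Rhox9 (0.08 to 1.11, limma adjusted p = 0.275) and -0.38 for Rhox13 (-0.94 to 0.18, limma adjusted p = 0.574). The day 12 arrays lay above all day 4 arrays for Rhox5 and Rhox6, as for 4.46% of entries, and overlapped them for Rhox9 and Rhox13. The Rhox5 and Rhox6 differences, with the same values, passed in 4 alternative fits in which more of all entries passed too. With replicate number as a term their limma adjusted p was 0.0153 and 0.0137, where 9.43% of entries passed. The share was 2.69% with values under the 25th percentile raised to it, 5.33% without dim genes and 1.93% with trend and robust moderation.

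In KO cells Rhox5 and Rhox6 rose from day 4 to day 12. Rhox5 went from 11097 ± 489 (SD, n = 4) to 21381 ± 1884, a log2 difference of 0.94 (95% interval 0.70 to 1.19, limma adjusted p = 8.9e-04), and Rhox6 from 1207 ± 83.7 to 2253 ± 290.2, a difference of 0.89 (0.58 to 1.20, limma adjusted p = 0.00510). For both genes all 4 KO arrays of day 12 were above all 4 of day 4, as for 6.94% of entries. Rhox9 went from 756 ± 159 to 1215 ± 279, a difference of 0.68 (0.17 to 1.19, limma adjusted p = 0.156), and Rhox13 from 858 ± 188 to 1146 ± 256, a difference of 0.42 (-0.14 to 0.98, limma adjusted p = 0.488), and their groups overlapped. So 2 of 4 members passed, where 3.27% of entries did in either direction. Rhox9 passed without KO day 12 clone 15 replicate 2, at a difference of 0.91 (limma adjusted p = 0.0479), where 1.86% of entries did. Rhox6 missed the threshold without the day 4 arrays of replicate 2, at 0.81 (limma adjusted p = 0.0521), a fit added after the values were seen. These KO arrays also entered the choice of the members, so the p-values of this comparison are not free of that choice.

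Whether the KO minus control difference itself changed between the days was tested by an interaction term. The day 12 difference exceeded the day 4 difference by 0.47 for Rhox5 (95% interval 0.13 to 0.82), by 0.33 for Rhox6 (-0.11 to 0.76), by 0.08 for Rhox9 (-0.65 to 0.81) and by 0.80 for Rhox13 (0.00 to 1.59), with limma adjusted p from 0.998 to 0.9999. The unadjusted p was 0.0111 for Rhox5 and 0.0494 for Rhox13 in limma's fit, 0.130 for Rhox6 and 0.812 for Rhox9. Over all entries 0 passed the adjusted threshold and 832 (4.57%) had an unadjusted p under 0.05, and with the pairs as a block 1 passed. The block gave the members a limma adjusted p from 0.384 to 0.923. A difference of the KO effect between days was not shown for any member, and each interval allows an increase of at least 0.76.

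**Figure D3:**
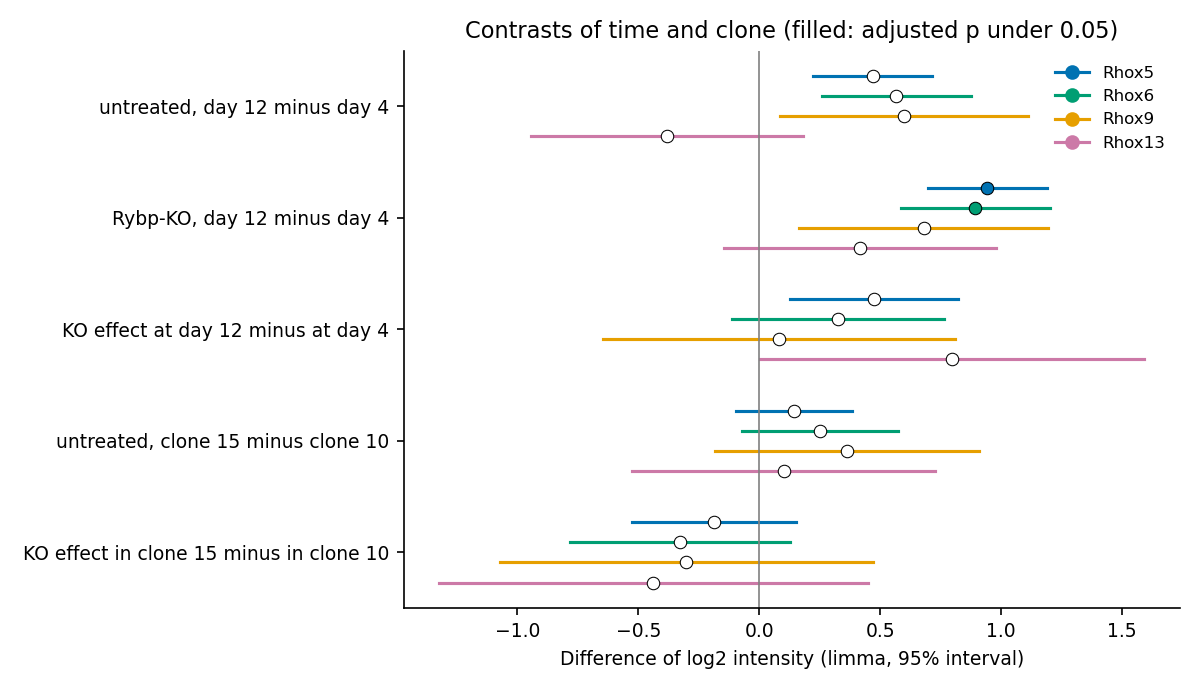
Differences of log2 intensity with 95% intervals from limma for the 4 Rhox genes in the 5 contrasts of time and clone; a filled point has an adjusted p under 0.05. Only the rise of Rhox5 (0.94) and Rhox6 (0.89) from day 4 to day 12 in KO cells passed. Those KO arrays also entered the choice of the members.

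The clones gave the same direction for every member, and no difference between them passed a test. In untreated cells clone 15 read above clone 10 by 0.14 for Rhox5 (95% interval -0.10 to 0.38), 0.25 for Rhox6 (-0.07 to 0.57), 0.36 for Rhox9 (-0.18 to 0.91) and 0.10 for Rhox13 (-0.53 to 0.73), with limma adjusted p from 0.991 to 0.995, where 0.066% of entries passed. The sign for Rhox13 turned without 1 array in 3 of 16 fits. At day 4 both control arrays of clone 15 were above both of clone 10 for Rhox5, Rhox6 and Rhox9, as for 13.8% of entries, and at day 12 the clones overlapped for all 4 genes. The KO minus control difference was smaller in clone 15 than in clone 10 by point value for every member, by -0.19 for Rhox5 (-0.52 to 0.15), -0.33 for Rhox6 (-0.78 to 0.13), -0.30 for Rhox9 (-1.07 to 0.47) and -0.44 for Rhox13 (-1.32 to 0.45). The limma adjusted p was 0.9999 for all 4, 0 of 18195 entries passed, and 585 (3.22%) had an unadjusted p under 0.05. Across both days the pair folds of Rhox13 ran from 5.40 to 14.2 in clone 10 and from 3.65 to 7.64 in clone 15, and those of Rhox6 from 2.89 to 4.22 and from 2.41 to 3.21. Those of Rhox5 ran from 1.49 to 2.15 and from 1.32 to 1.97, and those of Rhox9 from 1.72 to 2.56 and from 1.77 to 1.96.

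The spread between arrays of 1 group differed among the members. The residual SD of log2 intensity was 0.13 for Rhox5 and 0.18 for Rhox6, against 0.34 for Rhox9 and 0.37 for Rhox13. The widest relative spread within a group was that of Rhox13 in control cells of day 12, with a coefficient of variation of 31.9%, and the narrowest that of Rhox5 in KO cells of day 4, with 4.40%.

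The neighbours of the cluster did not share the difference as a group. Of the 5 nearest measured genes on each side, from Gm9 to Nkap and from Zbtb33 to Cul4b, 0 of 10 passed at day 4 and 1 of 10 at day 12, with median differences of 0.13 and -0.03 against 0.01 at both days over all entries. The gene that passed was Gm9, the nearest on the side of Rhox1, which rose from 86.2 ± 17.2 (SD, n = 4) to 192 ± 33.1 at day 12, a difference of 1.16 (SE 0.24, limma adjusted p = 0.0214), and read 0.68 (SE 0.24, limma adjusted p = 0.360) at day 4. On the other side Zbtb33, which encodes the methyl-CpG binding protein Kaiso, read 0.19 at day 4 and 0.38 at day 12 (limma adjusted p = 0.0983). Also on that side, Tmem255a had control means of 22.8 and 8.66 and Atp1b4 of 7.51 and 4.67. These lay under the 25th percentile of intensity (28.3), where a missing call says little. Of the 613 X-linked genes outside the cluster 5 were higher and 0 lower at day 4, and 31 higher and 6 lower at day 12 (6.04%, against 3.09% of all entries in either direction and 0.627% at day 4). Their median differences were -0.00 and 0.04.

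Subunits of PRC1.6 and enzymes of DNA methylation were mostly not called. Over all entries 0.627% passed at day 4 and 3.09% at day 12 in either direction. Of 13 PRC1.6 subunit genes 0 passed at day 4 and 1 at day 12, with medians of -0.01 and 0.01. That gene was E2f6, a DNA-binding subunit, which rose from 702 ± 84.4 (SD, n = 4) to 1135 ± 136 at day 12, a difference of 0.69 (SE 0.17, limma adjusted p = 0.0446), and read 0.45 (SE 0.17) at day 4. Its other, dimmer probe set read 1.14 at day 12 (limma adjusted p = 0.496 over every probe set). Pcgf6, the defining subunit, read -0.04 at day 4 and -0.05 at day 12, and Mga -0.23 and -0.38 (limma adjusted p = 0.197 at day 12). Of 14 measured genes for DNA and H3K9 methylation 0 passed at either day, with medians of -0.04 and -0.11. The maintenance methyltransferase gene Dnmt1 read -0.09 and -0.40, its partner Uhrf1 -0.04 and -0.08, and the de novo methyltransferase genes Dnmt3a -0.35 and -0.46 and Dnmt3b -0.05 and -0.16. For Dnmt3a at day 12 (SE 0.24, limma adjusted p = 0.418) the other 4 probe sets, all dimmer, read -0.56, -0.69, -0.73 and -0.84, with limma adjusted p over every probe set from 0.0542 to 0.368. DNA methylation itself was not measured on these arrays.

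Germline genes known to be silenced by promoter methylation differed in the same direction as the Rhox genes where they were called. Of 20 measured genes of this list 8 rose and 0 fell at day 4, where 0.566% of all entries were called higher. For day 12 the counts were 12 and 0, where 2.19% of all entries were called higher. The medians were 1.26 and 1.72, against 0.01 over all entries. The genes were split, with lower quartiles of 0.18 and 0.04 and lowest differences of -0.72 and -0.42. Named below are the 4 called genes with the largest day 12 differences. The list was drawn up with results of these arrays known and is not independent evidence of its direction. Tex101, a sperm surface protein gene, rose by 2.75 (SE 0.45) at day 4 and 3.60 (SE 0.45) at day 12, though from a control mean of 12.9 and 11.6, under the 25th percentile of all intensities (28.3). Slc25a31, the testis ADP/ATP carrier gene, rose by 2.29 (SE 0.31) and 3.12 (SE 0.31), Dazl, a germ cell RNA-binding protein gene, by 1.83 (SE 0.19) and 2.91 (SE 0.19), and Sycp1, of the synaptonemal complex, by 2.41 (SE 0.25) and 2.64 (SE 0.25). These 8 limma adjusted p ranged from 5.5e-06 to 0.0132. In untreated cells 0 of the 20 differed between the days, with a median of -0.21, and in KO cells 0 did, with a median of 0.03.

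Markers of the cell types that normally make Rhox genes, or that ES cultures can hold, were set beside these values. Of 20 measured trophoblast and placenta markers 0 passed at day 4 (median 0.31) and 3 rose at day 12 (median 0.21), where 2.19% of all entries were called higher. The 3 were the trophoblast transcription factor genes Cdx2, from 7.34 ± 4.57 (SD, n = 4) to 46.7 ± 32.3, and Gata3, from 8.54 ± 3.28 to 47.5 ± 18.4, and the placental gene Plac1, from 65.0 ± 31.3 to 180 ± 31.3. The control means of Cdx2 and Gata3 lay under the 25th percentile of intensity (28.3). At day 4 the means of Cdx2 were 42.5 ± 5.79 without and 30.5 ± 8.35 with OHT, so its control mean was lower at day 12 than at day 4. Its other probe set read -0.26 at day 12 (limma adjusted p = 0.883 over every probe set). In untreated cells 3 of the 20 were higher and 1 lower at day 12 than at day 4, where 0.995% of all entries passed in either direction. The summed intensity of the 20 ran from 7680 to 10839 in control and from 9113 to 12257 in KO cells at day 4. At day 12 it ran from 12753 to 15273 in control and from 13267 to 17992 in KO cells. Esrrb, also among the ES cell markers, averaged 3162 and 3480 in control cells of day 4 and day 12. Krt8 averaged 440 and 2098 there, and Krt18 1158 and 3850. The sum is therefore largely that of a few bright genes and is no measure of trophoblast cells. Over all entries 0.627% passed at day 4 and 3.09% at day 12 in either direction. None of the 10 measured Sertoli and gonad markers or the 16 feeder fibroblast markers passed at either day by limma. Their summed intensity ran from 1233 to 1719 and from 8415 to 17927 over all arrays. The control means of Amh, Sox9 and Nr5a1 lay under the 25th percentile of intensity at both days, where a missing call says little. Dmrt1 (mean 903 in control cells of day 4) and Fn1 (7385) made up much of the 2 sums.

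Markers of primitive and visceral endoderm, the extraembryonic lineage that also arises in ES cultures, moved with day and, at day 12, with KO. This list was added after the values had been seen. Of its 16 genes 9 rose and 0 fell from day 4 to day 12 in untreated cells (median 2.17), and 15 rose and 0 fell in KO cells (median 3.12). Of all entries 0.995% and 3.27% passed in these 2 comparisons in either direction. Between KO and control 0 passed at day 4 (median -0.03) and 3 rose at day 12 (median 0.73), where 2.19% of all entries were called higher. The 3 were the endoderm transcription factor gene Gata6, by 0.98 (SE 0.24), and the uptake receptor genes Amn, by 1.08 (SE 0.20), and Lrp2, by 1.14 (SE 0.23). Their limma adjusted p ranged from 0.0115 to 0.0483, the highest being that of Gata6. Other probe sets of Gata6 read 0.62 and 0.48 at day 12 (limma adjusted p = 0.843 and 0.934 over every probe set). Those of Lrp2 read 1.29 and 0.64 (limma adjusted p = 0.00791 and 0.739 over every probe set). The other 13 genes of the list read from -0.01 (Hnf4a) to 1.56 (Pdgfra) at day 12. The summed intensity of the 16 ran from 4924 to 7490 in control and from 5078 to 7404 in KO cells at day 4, and from 18802 to 29006 and from 27754 to 44882 at day 12. No value in the table is 0, the lowest being 0.144, so no marker of either list is at 0. The part of endoderm or trophoblast cells in the Rhox values was not tested. In bulk RNA, fewer cells of a type and less RNA per cell cannot be told apart.

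**Figure D4:**
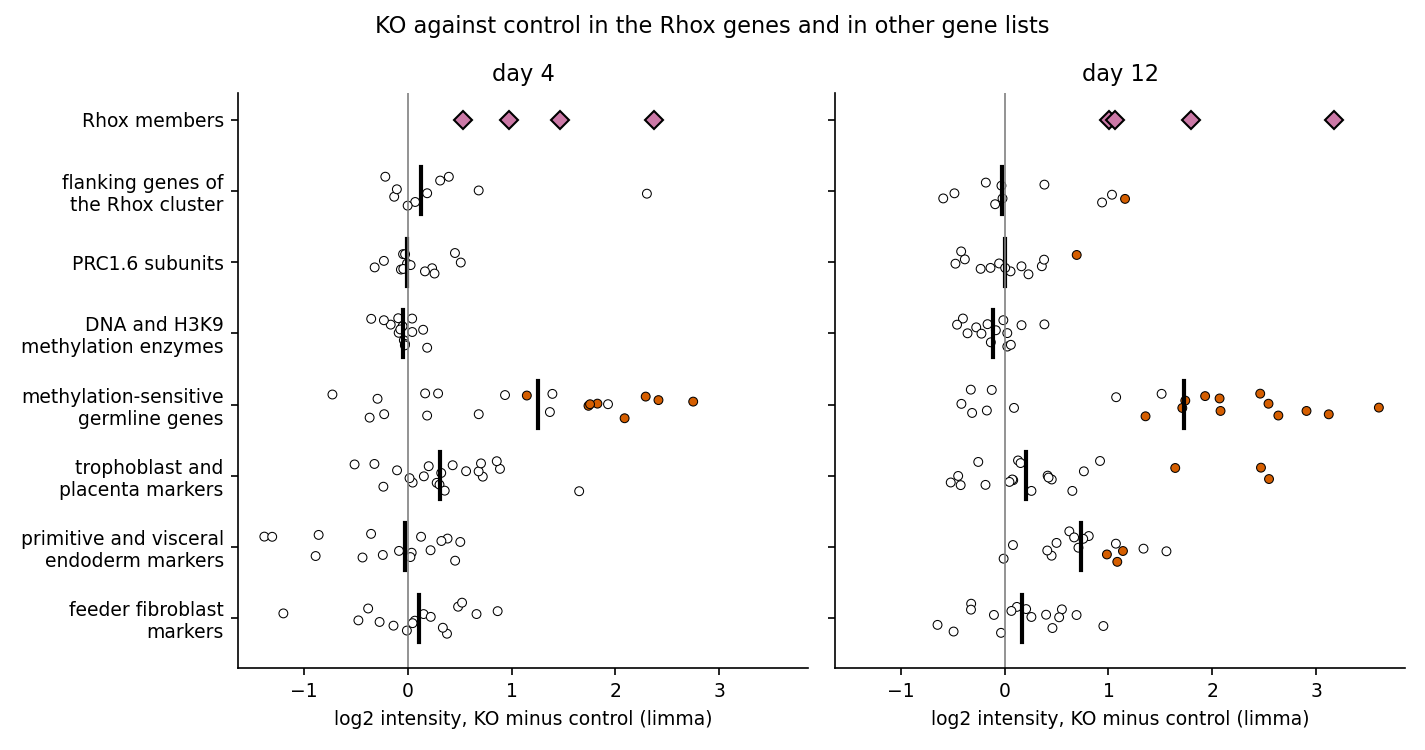
Difference of log2 intensity between KO and control cells from limma at day 4 and day 12, for the 4 Rhox genes (diamonds) and for the genes of the other lists (circles, filled at an adjusted p under 0.05), with the median of each list as a bar. Germline genes known for silencing by promoter methylation, which was not measured here, have medians of 1.26 and 1.72. The medians of flanking genes, PRC1.6 subunits and methylation enzymes lie between -0.11 and 0.13. Single flanking genes run from -0.22 to 2.30 at day 4 and from -0.59 to 1.16 at day 12. The value of 2.30 is that of Atp1b4 (SE 1.01), whose control mean of 7.51 lies under the 25th percentile of intensity (28.3).

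RNA quality was read from the 3' over 5' signal of control transcripts. That of the transferrin receptor was higher in KO arrays in 4 of 4 pairs at day 4, by 0.20 ± 0.14 on the log2 scale (SD, n = 4), and in 1 of 4 at day 12 (-0.02 ± 0.10). The shifts were 0.03 ± 0.03 and 0.07 ± 0.10 for actin, 0.01 ± 0.05 and -0.02 ± 0.05 for Gapdh, and -0.03 ± 0.45 and 0.18 ± 0.41 for pyruvate carboxylase. Their part in the day 4 differences of the Rhox genes was not tested.

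Genes whose pattern over the 16 arrays was most like that of each member were taken from 9094 genes at or above the median level outside the Rhox family. For Rhox13 these were Mael, a piRNA pathway gene, with a Pearson r of 0.976 over 16 arrays, Crabp1 (0.966), a retinoic acid binding protein gene, Ccnb1ip1 (0.965) and Syce1 (0.963), of meiotic recombination and the synaptonemal complex, and the meiotic gene Tex11 (0.960). For Rhox6 they were Gstm5 (0.973), a glutathione transferase gene, Creg1 (0.954), Limch1 (0.952), Lamtor4 (0.950) and Zcchc17 (0.950). Gstm5 (0.914) and Lamtor4 (0.901) were also among those of Rhox9, after 3830417A13Rik (0.923) and Smim11 (0.920) and beside Oat (0.902), ornithine aminotransferase. For Rhox5 they were Gcnt1 (0.966), a glycosyltransferase gene, Gcsh (0.956), of glycine cleavage, Prxl2a (0.949), P4ha2 (0.949), a collagen prolyl hydroxylase gene, and Dera (0.948). The arrays differ by OHT and day, so the 16 points are not independent and each r is a description. Between the lists of different members, the shared genes were the 2 named for both Rhox6 and Rhox9.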

How the data were processed

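Total RNA was extracted with Trizol and hybridised as biotin-labelled cRNA to Affymetrix arrays, per the labels' protocols. The authors deposited linear intensity values for 45101 probe sets on 16 arrays, and RMA and Affymetrix Expression Console are named, without versions, in the submitters' processing notes. All 16 arrays hold the same sorted values, so they had been quantile-normalised before deposit. The series' design text names a smaller array than the one whose probe sets the table holds, and a genome build is not given in the sources used here. Scanner files were not used here.

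Intensities were log2-transformed with no offset. Leaving aside 64 controls, the platform annotation gave 1 gene symbol to 34945 probe sets, several to 932 and none to 9160. Each of 18193 genes was represented by its probe set of highest mean. Both Rybp probe sets carry several symbols and were added, making 18195 entries. Each Rhox gene has 1 probe set, and 4 of 4 matched RefSeq by Entrez identifier. A linear fit of group and clone to all 16 arrays used limma 3.58.1 (statmod 1.5.0, R 4.3.3) with empirical Bayes moderation and Benjamini-Hochberg adjustment over all entries. Clone contrasts came from a fit of separate means per clone and group. A difference was called at an adjusted p under 0.05. The fit was checked on simulated data. The number of arrays limits the precision.

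Replicate numbers paired the samples: the deviations of KO and control arrays of the same clone, day and number correlated at 0.700 to 0.745 at day 4 and 0.174 to 0.444 at day 12, so the 8 pairs were also used as a block. The members and lists were chosen with earlier results of these data known, and the endoderm list was added after values were seen here. Named genes were the members, those called at either day in a list (at most 4 by their day 12 difference), the 5 genes most like each member, and Rybp, Pcgf6, Mga, E2f6, Dnmt1, Dnmt3a, Dnmt3b and Uhrf1 whatever their values. Zbtb33 and the flanking genes at the ends of the range were named by position, and Tmem255a and Atp1b4 for their low level. Promoter sequences are from RefSeq, assembly GRCm38.p6. Alternatives were a floor at the 25th percentile, an offset of 16, housekeeping scaling, every probe set, dim genes left out, trend and robust moderation, single clones and replicate numbers, and each array left out.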

Additional observations from a re-analysis of the deposited data

Results flagged for a closer look

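In KO cells of day 12, Rhox6 read 1825 on the array of clone 15 replicate 2, below the other 3 arrays, which lay between 2352 and 2470.2. In KO cells of day 4, Rhox9 read 519 on the array of clone 10 replicate 1, below the other 3 arrays, which lay between 815 and 858. On the log2 scale each array stood apart from its group by a gap that is large against the range of the 4 arrays (Dixon's test at the 95% level). The readings above are linear, and on that scale the gap of Rhox6 is borderline. 16 groups of 4 arrays were examined, and chance alone marks about 1 in 20.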

How the results depend on the processing

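The KO minus control differences of the 4 Rhox genes kept their sign in every alternative run, the 16 fits without 1 array included. With 1 array left out they ran, at day 4 and day 12, from 0.47 to 0.58 and from 0.94 to 1.06 for Rhox5, from 1.41 to 1.53 and from 1.73 to 1.91 for Rhox6, from 0.88 to 1.12 and from 0.90 to 1.29 for Rhox9, and from 2.24 to 2.51 and from 2.91 to 3.32 for Rhox13. In the other alternatives all 112 such values kept their direction, while calls changed as given below. The members were chosen on these contrasts and every pair of arrays was above 0. Signs kept in refits of the same arrays are therefore a description and support nothing. Of 252 values of the 5 tested contrasts 229 kept their direction and, where a p-value existed, their side of the threshold. The clone contrasts with replicate 1 or 2 alone have no p-value, so only direction counts for them. The rise of Rhox5 from day 4 to day 12 in KO cells missed the threshold with replicate 1 alone (0.99), replicate 2 alone (0.90), clone 10 alone (1.09) and clone 15 alone (0.79), and that of Rhox6 in the same fits (0.92, 0.87, 0.97 and 0.82), which hold fewer arrays, and without the day 4 arrays of replicate 2 (0.81). The difference between days in untreated cells passed for Rhox5 (0.47) and Rhox6 (0.57) with replicate number as a term, with the floor, without dim genes and with trend and robust moderation, where 9.43%, 2.69%, 5.33% and 1.93% of entries passed. The day 12 minus day 4 difference of Rhox13 turned to 0.12 in untreated cells with replicate 1 alone and to -0.041 in KO cells with replicate 2 alone. The KO effect of Rhox9 at day 12 minus day 4 turned to -0.048 with replicate 2 alone, -0.061 in clone 15 alone and -0.090 without the day 4 arrays of replicate 1, and ran from -0.073 to 0.31 without 1 array. The clone difference of Rhox13 in untreated cells turned to -0.079 without the day 4 arrays of replicate 1, and ran from -0.18 to 0.38 without 1 array. Without 1 array the KO rise of Rhox9 ran from 0.53 to 0.91. The cause was not tested.

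With the 8 pairs as a block the counts of all entries higher and lower were 134 and 44 at day 4 (103 and 11 without it) and 852 and 627 at day 12 (399 and 164). The block added the day 4 calls of Rhox5 (limma adjusted p = 0.0382) and Rhox9 (0.0271) and changed no other call of a Rhox gene. Both genes were also called higher at day 4 with replicate number as a term, without dim genes and with trend and robust moderation, where 272, 106 and 122 of all entries were, and Rhox5 with the floor, where 176 were. It gives no contrast between pairs, so the day contrasts within a condition and the untreated clone contrast have no such fit. Housekeeping scaling moved the median of all entries between days in untreated cells from 0.02 to -0.11. Within a single clone or replicate number, where limma had few arrays, 0 of 4 Rhox genes were called at either day. Of all 18195 entries 0 were called in these fits, except in clone 10. There 4 were higher and 1 lower at day 4, and 34 higher and 3 lower at day 12. A missing call in these fits therefore says little about the Rhox genes. Fits without the day 4 arrays of replicate 1 or 2 were added after the values were seen. They called 0 and 1 (Rhox6) at day 4, where 32 and 44 of all entries were higher. Without those of replicate 2 Rhox9 also lost its call at day 12, where 479 of all entries were higher. Tested over every probe set, 3 of 4 Rhox genes were called at day 12, without Rhox9, where 395 of 45037 probe sets were higher. A second probe set of a member could not be tried, since each has 1.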
